A study of Caenorhabditis elegans with 16 samples.

Results

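The genes described here are the hsp-16 small heat shock protein genes of C. elegans together with hsp-12.6, a further small heat shock protein gene, and hsp-70, a heat-inducible Hsp70 gene. They were named as a list of 8 genes (hsp-16.1, hsp-16.11, hsp-16.2, hsp-16.41, hsp-16.48, hsp-16.49, hsp-12.6 and hsp-70) and matched by gene symbol among the 21882 genes of the deposited table. Of the 8 genes, 7 had a row and all 7 passed the filter on low counts, while hsp-16.49 had no row in the table used here and is described by its position only. Polyadenylated RNA of whole nematodes of the wild-type N2 Bristol strain, kept at 20 °C on NGM plates, was sequenced in 16 libraries. The 4 groups of 4 libraries were young adults with food at will, young adults fasted for 6 h, day 8 adults with food at will and day 8 adults fasted for 6 h. The labels name no mutation, transgene or drug for any group. The series description states the search for genes whose response to fasting is seen in young but not in aged animals. Whether the 4 libraries of a group came from separate cultures is not in the labels, and p-values therefore describe the spread among these libraries alone.

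Small heat shock proteins carry an alpha-crystallin domain. Many of them assemble into oligomers and hold unfolding proteins so that these do not aggregate, without using ATP. Hsp70 proteins bind exposed hydrophobic stretches of clients and refold them in cycles driven by ATP. In C. elegans the hsp-16 genes and hsp-70 are kept low without stress and are switched on by the heat shock factor HSF-1 upon heat and other proteotoxic stress, and hsp-16 reporters are widely used to read out that response. hsp-12.6 encodes a shorter small heat shock protein and is known as a target of both HSF-1 and the insulin-pathway factor DAF-16.

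Positions are those of the WBcel235 build. The hsp-16 genes lie on chromosome V in 2 clusters 7.281 Mb apart. The first cluster holds hsp-16.2 (1804334 to 1804957, minus strand) and hsp-16.41 (1805178 to 1805875, plus strand), which point away from each other with 220 bases between them. The second cluster holds hsp-16.1 (9087293 to 9087782, minus strand), hsp-16.48 (9088131 to 9088617, plus strand), hsp-16.49 (9089280 to 9089766, minus strand) and hsp-16.11 (9090077 to 9090604, plus strand). There, hsp-16.1 and hsp-16.48 diverge across 348 bases, and hsp-16.49 and hsp-16.11 diverge across 310 bases. hsp-16.1 and hsp-16.11 are near-identical copies, as are hsp-16.48 and hsp-16.49, so reads could have been divided within each pair by the authors' counting, and the value of hsp-16.48 may take in reads of hsp-16.49. hsp-12.6 lies on chromosome IV (9446229 to 9447228, minus strand) and overlaps a piRNA gene, 21ur-14949, on the same strand. hsp-70 lies on chromosome I (9320325 to 9322519, minus strand) inside the span of uggt-2 on the other strand, and no base of its exons falls in a uggt-2 exon.

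The depth was 58.4 to 117.7 M counts per library (M, 1000000). CPM below is a count per 1000000 counts of the library after TMM scaling. Of the counts from 1 to 12, rounded, 57.0% to 68.2% in each library were even, so a count may stand for a read end and not for a fragment, and counts given below may then hold fewer fragments than their number. The day 8 libraries numbered 3 and 4 stood apart from those numbered 1 and 2 in both feeding states: 15 oocyte markers summed to 17902 to 20037 CPM in libraries 1 and 2 and to 11161 to 12827 CPM in libraries 3 and 4. Genes with a count above 0 numbered 18993 to 19300 in day 8 libraries 1 and 2 and 20363 to 20764 in libraries 3 and 4. With age, 16 sperm markers fell from a sum of 783 to 1165 CPM in young libraries to 4.29 to 15.0 CPM at day 8, and 10 body wall muscle markers fell from 12845 to 15407 CPM to 722 to 1361 CPM. No marker of the 7 cell types examined was at 0 in all 4 libraries of any group. In whole animals, fewer cells of a type and less RNA per cell cannot be told apart. By the well codes in the sample names, age also goes with the plate column throughout. Feeding goes with the plate row, with fed libraries in rows A to D and fasted libraries in rows E to H. Effects of age or fasting cannot be told apart from those of plate position.

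The hsp-16 genes and hsp-70 were low in young adults and many times higher at day 8, in both feeding states. In fed animals all 7 genes rose, by 3.09-fold for hsp-12.6 to 29.8-fold for hsp-16.41. Among the 17844 genes tested, 30.8% were called higher with age in fed animals. The median log2 change of the 7 genes was 3.76, against -0.01 over all genes. A call is an adjusted p under 0.05 in edgeR's quasi-likelihood test, and a fold is the ratio of group mean CPM.

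hsp-16.2, the gene behind the most used heat shock reporters in this animal, was at 0.592, 0.533, 0.743 and 0.821 CPM in fed young libraries 1 to 4. In fed day 8 libraries 1 to 4 it was at 6.69, 9.86, 25.5 and 27.3 CPM. Every day 8 library lay above every young library, and libraries 3 and 4 were the higher ones at day 8. The group means were 0.672 ± 0.133 and 17.3 ± 10.6 CPM (SD, n = 4), a 25.8-fold rise (log2 4.69 ± 0.45 SE, edgeR adjusted p = 1.76e-07). Its divergent neighbour hsp-16.41 moved from 0.496, 0.360, 0.824 and 0.624 CPM to 5.71, 13.6, 23.5 and 25.9 CPM. These groups did not overlap, and the change was 4.89 ± 0.47 (edgeR adjusted p = 1.92e-07).

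In the second cluster, hsp-16.1 and hsp-16.11 rose too. hsp-16.11 was at 2.11, 2.87, 3.71 and 1.97 CPM in fed young libraries 1 to 4 and at 9.16, 17.8, 52.6 and 64.3 CPM in fed day 8 libraries. The groups did not overlap, and the rise was 13.5-fold (log2 3.75 ± 0.60, edgeR adjusted p = 4.41e-05). hsp-16.1 was listed at 0 in 5 of the 8 young libraries and reached 0.985 CPM in the others. At day 8 it was present in all 8 libraries, at 2.76, 4.91, 10.9 and 14.2 CPM in fed animals. Its share of the summed counts of hsp-16.1 and hsp-16.11 ran from 0 to 56.1% in young libraries and from 16.18% to 25.15% at day 8. With both copies summed, which does not depend on how reads were divided, fed young libraries were at 2.85 to 3.71 CPM and fed day 8 libraries at 11.9 to 78.5 CPM. The summed change was 3.83 ± 0.55 (edgeR adjusted p = 1.56e-05).

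hsp-16.48 rose least among the hsp-16 genes. It was at 2.89, 2.58, 5.74 and 5.55 CPM in fed young libraries 1 to 4 and at 3.88, 21.5, 29.1 and 33.2 CPM in fed day 8 libraries. Day 8 library 1 lay within the young range, so these groups overlapped, and the change was 2.39 ± 0.59 (edgeR adjusted p = 0.00207). hsp-70 was at 1.89, 1.69, 1.24 and 1.53 CPM in fed young libraries and at 8.50, 13.0, 33.1 and 31.2 CPM in fed day 8 libraries. The groups were separate, with a 13.5-fold rise (log2 3.76 ± 0.40, edgeR adjusted p = 5.1e-07). The overlapping gene uggt-2 moved the other way with age in fed animals, by -0.77 on the log2 scale.

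hsp-12.6 rose by less. It was at 0.671, 0.533, 0.351 and 0.542 CPM in fed young libraries 1 to 4 and at 1.46, 1.38, 2.21 and 1.43 CPM in fed day 8 libraries. All day 8 libraries lay above all young ones, and the change was 1.63 ± 0.26 (edgeR adjusted p = 4.67e-05).

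In fasted animals the hsp-16 genes and hsp-70 rose with age and hsp-12.6 was not called. Of the 7 genes 6 rose, beside 31.2% of all genes called higher, and the median log2 change was 4.99 against -0.05 over all genes. hsp-16.41 went from 0.205 ± 0.0867 to 14.4 ± 5.16 CPM (70.5-fold, log2 6.09 ± 0.52, edgeR adjusted p = 4.18e-08) and hsp-16.2 from 0.236 ± 0.0998 to 13.7 ± 4.13 CPM (57.8-fold). hsp-16.48, which overlapped between ages in fed animals, rose 29.4-fold from 1.37 ± 0.291 to 40.5 ± 27.4 CPM with no overlap (log2 4.87 ± 0.66, edgeR adjusted p = 8.08e-06). hsp-70 rose 20.0-fold. The fitted change of hsp-16.1 was 5.90 ± 1.29 (edgeR adjusted p = 0.000811), and 12.4 without fasted young library 3, which leaves that group at 0, so its size is not well determined. hsp-12.6 was at 1.95 ± 0.552 CPM in fasted young adults and 1.71 ± 0.365 CPM in fasted day 8 animals, a change of -0.19 ± 0.25 that did not pass (edgeR adjusted p = 0.506).

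**Figure D1:**
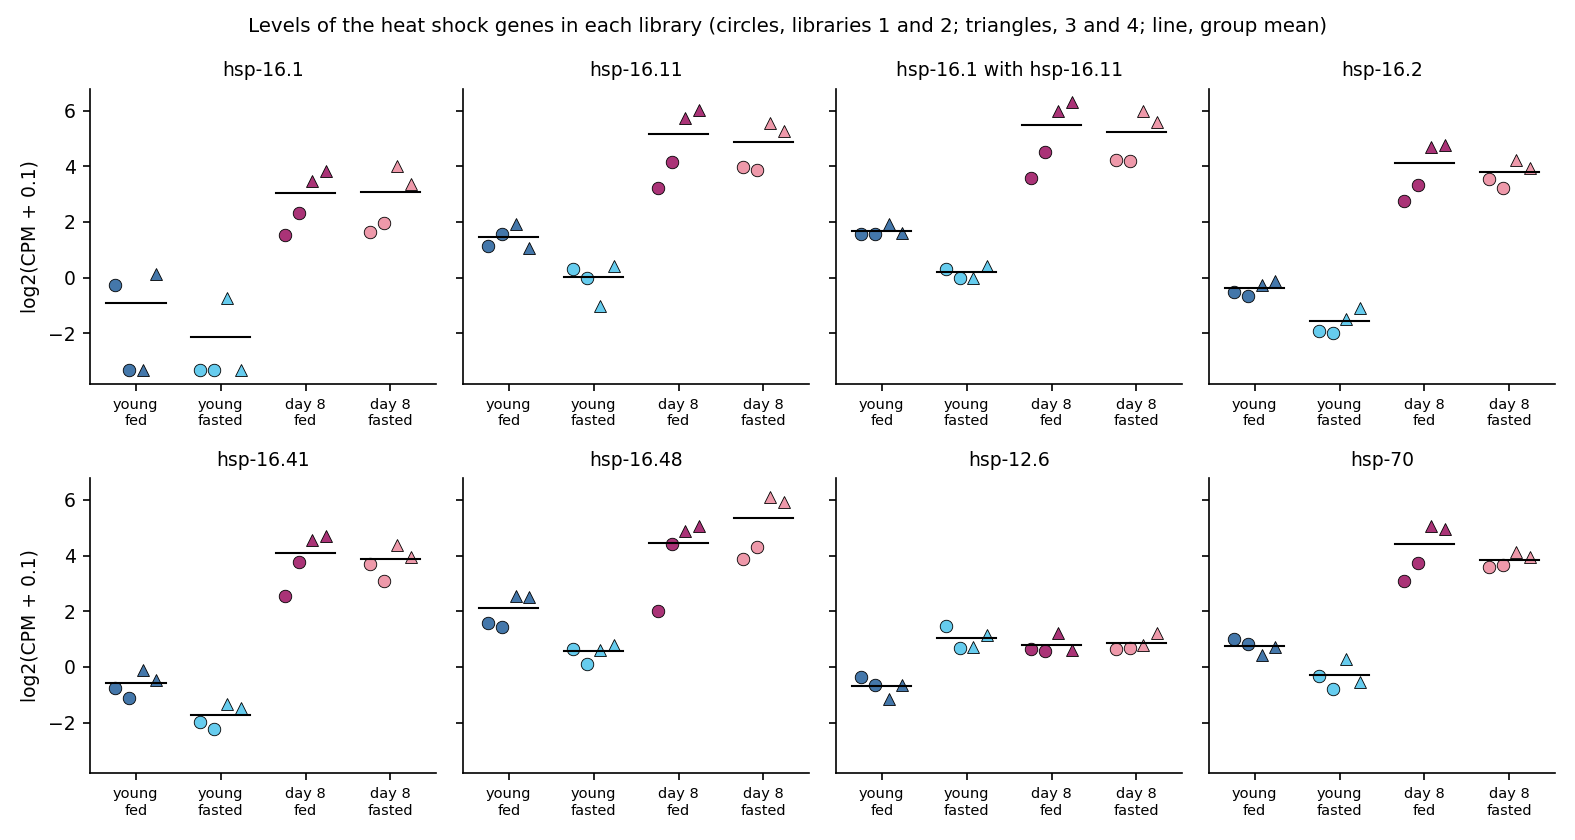
Level of each gene in each of the 16 libraries, on a log2(CPM + 0.1) axis, by group. Circles are libraries 1 and 2, triangles libraries 3 and 4, and the black line is the group mean. The third panel sums hsp-16.1 and hsp-16.11. Day 8 means sit above young means for all genes except hsp-12.6 in fasted animals, and at day 8 the triangles of the hsp-16 genes lie above the circles.

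In fed animals the size of the age difference depended on which day 8 libraries were used, and its direction and its call did not. With day 8 libraries 1 and 2 only, the fed age change of hsp-16.2 was 3.64 (edgeR adjusted p = 4.8e-10), and with libraries 3 and 4 only it was 5.40. For hsp-16.11 these values were 2.35 and 4.54, for hsp-70 they were 2.78 and 4.45, and for hsp-16.48 they were 1.62 and 3.00. hsp-12.6 moved least between the sets, at 1.46 and 1.91. All 7 genes were called higher in fed animals with either set. This split was chosen after seeing the data, and it takes the difference between the sets out of the spread. Calls and p-values within a set are therefore not an independent check. In fasted animals the value of hsp-12.6, not called with either set, was -0.42 with libraries 1 and 2 only and 0.09 with libraries 3 and 4 only.

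Within the day 8 groups the mean of libraries 3 and 4 was above that of libraries 1 and 2 for all 7 genes. In fed animals the ratio was 4.10 for the summed hsp-16.1 and hsp-16.11, 3.19 for hsp-16.2, 2.99 for hsp-70, 2.56 for hsp-16.41 and 2.46 for hsp-16.48. In fasted animals it was 3.77 for hsp-16.48 and 3.05 for the summed copies, and lower for the pair of the first cluster, at 1.62 for hsp-16.2 and 1.69 for hsp-16.41. For hsp-70 it was 1.34 in fasted animals. hsp-12.6 differed little between the sets, with ratios of 1.28 and 1.32. The summed hsp-16 level was 28.2 and 67.6 CPM in fed libraries 1 and 2, and 142 and 165 CPM in fed libraries 3 and 4. In the same fed libraries 1 to 4 the oocyte marker sum was 20037, 17902, 12827 and 12153 CPM, the sum of 15 embryo markers 1738, 1639, 1025 and 998 CPM, and the muscle marker sum 918, 771, 1361 and 1168 CPM. Their part in the difference between the sets was not tested.

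Fasting for 6 h lowered most of these genes in young adults and raised hsp-12.6. Of the 7 genes 5 fell (hsp-16.2, hsp-16.11, hsp-16.41, hsp-16.48 and hsp-70), beside 21.1% of all genes called lower. hsp-12.6 rose, beside 21.2% of all genes called higher, and hsp-16.1 was not called. The median log2 change of the 7 genes was -1.47, against 0.03 over all genes.

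hsp-16.48 was at 1.48, 0.964, 1.41 and 1.65 CPM in fasted young libraries 1 to 4, all below the fed range that began at 2.58 CPM. Its mean was 4.19 ± 1.69 CPM in fed and 1.37 ± 0.291 CPM in fasted young adults (log2 -1.60 ± 0.60, edgeR adjusted p = 0.0441). hsp-16.11 was at 1.13, 0.888, 0.394 and 1.25 CPM in fasted libraries, again without overlap with the fed ones (log2 -1.55 ± 0.60, edgeR adjusted p = 0.0492). Summed with hsp-16.1 it was at 1.13, 0.888, 0.896 and 1.25 CPM, a narrower spread, and the sum fell by 1.57 on the log2 scale (edgeR adjusted p = 0.0321).

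The divergent pair of the first cluster was near the detection limit after fasting. hsp-16.2 was at 0.168, 0.151, 0.258 and 0.369 CPM, which rests on 7.85 to 26.4 counts per library (log2 -1.47 ± 0.49, edgeR adjusted p = 0.024). hsp-16.41 was at 0.151, 0.113, 0.299 and 0.255 CPM, or 5.88 to 21.5 counts (log2 -1.45 ± 0.52, edgeR adjusted p = 0.0352). Both were below every fed library. hsp-70 was at 0.689, 0.472, 1.11 and 0.581 CPM in fasted young adults, below the lowest fed value of 1.24 CPM (log2 -1.13 ± 0.40, edgeR adjusted p = 0.031). uggt-2, which overlaps hsp-70, went the other way, by 1.11. The value of hsp-16.1 was -1.60 ± 1.32 (edgeR adjusted p = 0.344), with fed and fasted libraries both listed at 0 in part. Without fasted library 3, the only one of its group above 0, it was -8.13 (adjusted p = 0.0548), and without any other library it ran from -2.04 to -0.78.

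hsp-12.6 was at 2.67, 1.49, 1.55 and 2.10 CPM in fasted young libraries 1 to 4, above every fed library. The mean rose 3.73-fold (log2 1.90 ± 0.26, edgeR adjusted p = 2.84e-05). That level, reached after 6 h without food, lay within the range of the fed and fasted day 8 libraries, 1.38 to 2.24 CPM, except for library 1.

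The model took the spread per gene from the 16 libraries together, day 8 sets included. With the 8 young libraries alone all 5 were still called, with edgeR adjusted p of 4.03e-05 for hsp-16.48, 0.000174 for hsp-16.11, 0.000777 for hsp-70, 0.000921 for hsp-16.2 and 0.00272 for hsp-16.41. In the model of all libraries, leaving out fed library 4, fasted library 1 or fasted library 2 left 0 of the 5 called. Leaving out fed library 3 or fasted library 4 left 1, fed library 1 left 2, and fed library 2, fasted library 3, day 8 fed library 3 or day 8 fasted library 4 left 3. With all counts divided by 2, for the case that both ends of a fragment were counted, hsp-70 alone of the 5 was called (edgeR adjusted p = 0.0485), with adjusted p of 0.053 for hsp-16.2, 0.0581 for hsp-16.48, 0.0636 for hsp-16.41 and 0.0692 for hsp-16.11. With RLE scaling 4 were called and hsp-16.11 was not (adjusted p = 0.0549). No fall changed direction, and hsp-12.6 was called in all of these fits. With fasting in young adults 9 of 15 oocyte markers fell, beside 21.1% of all genes called lower. The sum of the 15 went from 14250 to 14875 CPM to 10155 to 10350 CPM. Of 16 sperm markers 4 rose, a share near the 21.2% of all genes called higher. The sum of the 16 went from 783 to 823 CPM to 1146 to 1165 CPM. Of 10 intestine markers 3 rose and 4 fell, and of 13 embryo markers tested 1 rose and 4 fell. The part of these markers in the falls was not tested.

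**Figure D2:**
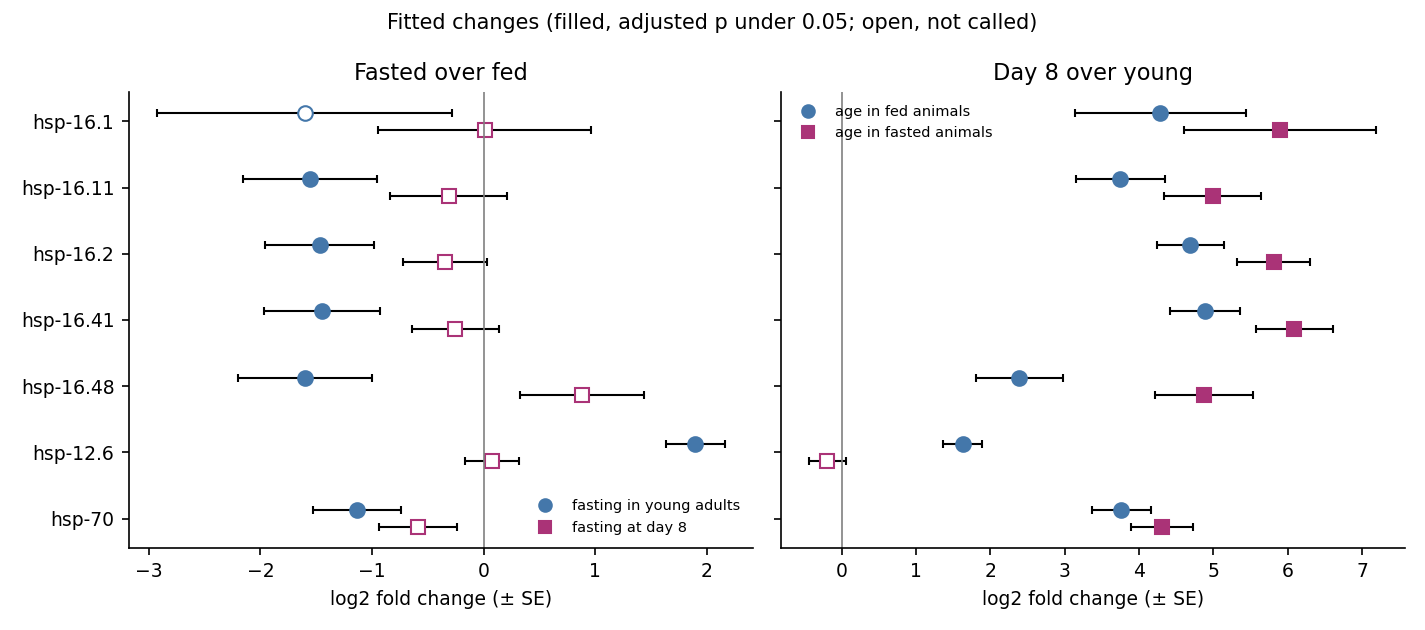
Fitted log2 fold changes with SE for the 7 genes, fasted over fed on the left and day 8 over young on the right. Filled symbols are called at an adjusted p under 0.05 in edgeR. In young adults hsp-12.6 lies at 1.90 and the other genes between -1.60 and -1.13, while all values at day 8 are open.

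At day 8 no gene of the list was called after fasting: 0 of 7 passed with edgeR, 0 had an unadjusted p under 0.05, and 0 passed with DESeq2. Few genes passed at this age at all, with 0.151% called higher and 0.219% called lower. With same-numbered libraries paired within each age, 167 genes were higher and 347 lower in place of 27 and 39. The labels do not give that pairing. Again no gene of the list was called, with hsp-16.48 at 0.93 ± 0.24 on the log2 scale (edgeR adjusted p = 0.0636).

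hsp-16.48 was at 14.4, 19.6, 67.9 and 60.1 CPM in fasted day 8 libraries 1 to 4, with a mean of 40.5 ± 27.4 CPM against 21.9 ± 13.0 CPM in fed ones (log2 0.88 ± 0.55). hsp-16.2 was at 11.6, 9.24, 18.7 and 15.1 CPM (log2 -0.35 ± 0.37), and hsp-16.41 was at 13.0, 8.48, 20.9 and 15.3 CPM (log2 -0.25 ± 0.39). All of these overlapped the fed libraries. hsp-70 was at 12.0, 12.4, 17.3 and 15.4 CPM against a fed range of 8.50 to 33.1 CPM (log2 -0.59 ± 0.35), so fasted libraries were the more alike. hsp-12.6, at 1.44 to 2.24 CPM, changed by 0.08 ± 0.25. The summed hsp-16.1 and hsp-16.11 stood at 18.6, 18.1, 63.5 and 48.7 CPM in fasted libraries 1 to 4 and changed by -0.25 ± 0.49.

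Set against the fed library of the same number, hsp-16.48 in fasted day 8 libraries 1 to 4 stood at 3.71, 0.911, 2.33 and 1.81 times the fed level, higher in 3 of 4. hsp-16.2 stood at 1.73, 0.938, 0.732 and 0.555 times and hsp-70 at 1.42, 0.952, 0.521 and 0.495 times, lower in 3 of 4. Library 1 was the exception for both. With day 8 libraries 3 and 4 only, a split chosen after seeing the data, hsp-16.48 was called higher (1.03, edgeR adjusted p = 0.0153), and hsp-70 (-0.98, adjusted p = 0.00429) and hsp-16.2 (-0.65, adjusted p = 0.018) were called lower. With libraries 1 and 2 only none was called, and the values were 0.41, 0.18 and 0.32.

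**Figure D3:**
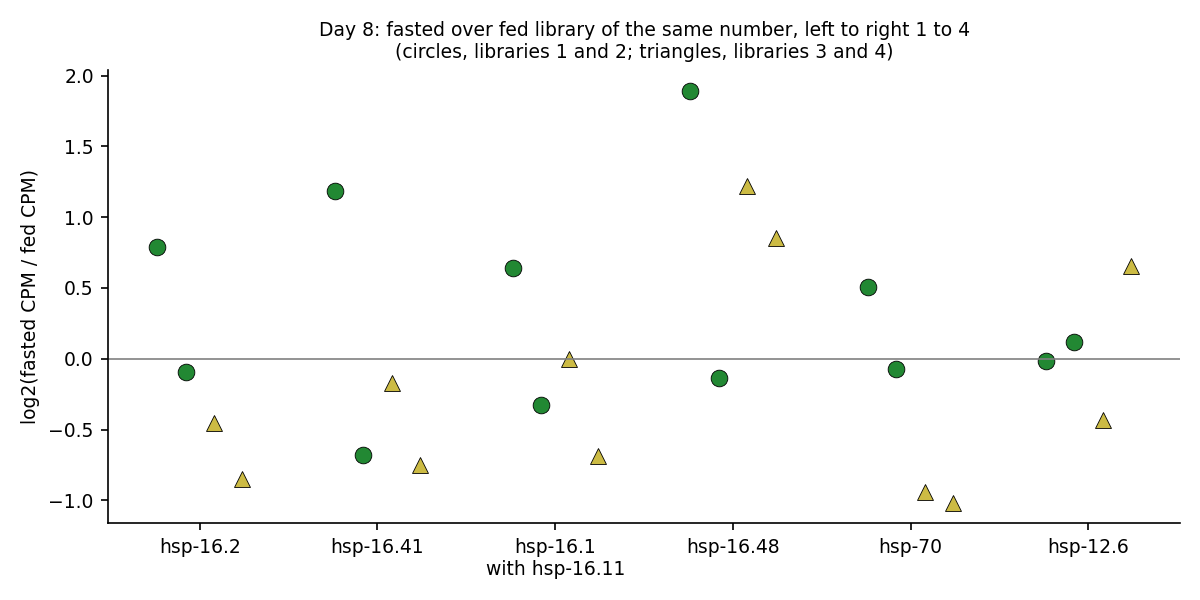
Ratio of fasted to fed CPM at day 8 for libraries of the same number, on a log2 axis, with libraries 1 to 4 from left to right for each gene. Circles are libraries 1 and 2 and triangles libraries 3 and 4. hsp-16.48 lies above 0 in 3 of 4 pairs, while hsp-16.2 and hsp-70 lie above 0 in pair 1 only.

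For hsp-12.6 and hsp-16.48 the test of the difference between the fasting responses (young minus day 8) passed, so 2 of 7 genes were called, beside 26.1% of all genes in either direction. The difference was 1.82 ± 0.36 for hsp-12.6 (edgeR adjusted p = 0.00126). For hsp-16.48 it was -2.48 ± 0.82 (edgeR adjusted p = 0.0355). It was lost in 9 of 16 fits that left out 1 library: fed young 3 or 4, any fasted young library, fed day 8 library 2, or fasted day 8 library 3 or 4. Over the 16 fits its adjusted p ran from 0.018 to 0.0821 and its value from -2.76 to -2.11. The remaining genes had differences of -1.12 ± 0.61 for hsp-16.2, -1.24 ± 0.80 for hsp-16.11, -1.20 ± 0.65 for hsp-16.41, -0.55 ± 0.53 for hsp-70 and -1.61 ± 1.63 for hsp-16.1, and did not pass. With same-numbered libraries paired within each age, hsp-16.2 (-1.33 ± 0.43, edgeR adjusted p = 0.0225) and hsp-16.11 (-1.42 ± 0.46, adjusted p = 0.0223) passed as well. That pairing is assumed and not given by the labels.

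Compared per kilobase of exon, hsp-16.48 was the highest of these genes in young adults and in fasted day 8 animals, at 9.70, 3.18 and 93.7 CPM per kb in fed young, fasted young and fasted day 8 groups. Its value may hold reads of hsp-16.49, while hsp-16.1 and hsp-16.11 are ranked apart, so this rank is uncertain. Against the summed hsp-16.1 and hsp-16.11, the mean ratio of hsp-16.48 CPM was 1.335 in fed and 1.323 in fasted young adults. At day 8 it was 0.538 in fed and 1.04 in fasted animals. In fed day 8 animals hsp-16.11 was first at 75.6 CPM per kb, followed by hsp-16.48 at 50.8, hsp-16.2 at 30.0, hsp-16.41 at 26.8, hsp-16.1 at 18.7, hsp-70 at 10.4 and hsp-12.6 at 2.11. Neighbours in that order overlapped between libraries, except hsp-70 and hsp-12.6. hsp-12.6 was the lowest in 3 groups and second in fasted young adults, at 2.54 CPM per kb. hsp-16.48 made up 40.7% to 55.8% of the summed hsp-16 level in young libraries, 13.8% to 31.8% in fed day 8 libraries and 25.03% to 43.1% in fasted day 8 libraries.

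hsp-16.2 and hsp-16.41 kept close to each other in every library, with a ratio of CPM from 0.727 to 1.48. Over 16 libraries their log2 CPM had a Pearson r of 0.996, which mostly reflects age, and 0.919 after subtraction of the group means, given as a description without a test. The residual r between pairs of hsp-16.11, hsp-16.2, hsp-16.41, hsp-16.48 and hsp-70 ran from 0.542 to 0.919. hsp-16.1, at 0 in most young libraries, had a residual r of -0.0407 with hsp-16.11 and of 0.37 to 0.583 with the other 4. Over the day 8 libraries alone its residual r with hsp-16.11 was 0.966. The split at day 8 is part of all these values. On log2 CPM, hsp-12.6 had an r of 0.194 to 0.309 with the other genes, which ran from 0.812 to 0.996 among themselves. Its residual r with them ran from 0.0557 to 0.364. Genes whose log2 CPM over 16 libraries was most like the mean of hsp-16.2 and hsp-16.41 were H37A05.4, C31E10.6, mgrn-1 (each r = 0.993) and T28A11.22 (0.992). T28A11.22 (0.993), fox-1 (0.989), wee-1.2 (0.988) and C52B9.8 (0.988) were most like hsp-70, and C17B7.4, C07E3.8 (both 0.951), C18A11.1 (0.946) and twk-32 (0.943) most like hsp-12.6. On residuals from the group means, the closest was C30G4.4 (0.955) for the hsp-16.2 and hsp-16.41 mean, K08C9.5 (0.926) for hsp-70 and Y51H7C.10 (0.895) for hsp-12.6.

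Of 82 genes on 9 other lists of chaperones and their regulators, 13 rose and 39 fell with age in fed animals, beside 30.8% of all genes called higher and 34.7% called lower. Of 11 other small heat shock protein genes, 3 rose and 7 fell in fed animals, with a median of -0.74. hsp-25 fell from 123 ± 3.07 to 22.9 ± 2.53 CPM (log2 -2.43 ± 0.07, edgeR adjusted p = 3.27e-13). hsp-12.3 (-2.54), hsp-12.2 (-2.20) and ZK1128.7 (-0.98) fell as well. Among those that rose was hsp-16.20, a further gene of the hsp-16 type (0.0516 ± 0.0356 to 0.592 ± 0.368 CPM, log2 3.49 ± 0.62). In fasted animals hsp-16.20 fell with age, from 2.53 ± 0.175 to 0.876 ± 0.48 CPM (log2 -1.52 ± 0.47, edgeR adjusted p = 0.00886). Of the 11 genes 1 rose with age in fasted animals, hsp-17 (2.28), and 8 fell, beside 31.2% and 36.9% of all genes. In fasting young adults hsp-16.20 went the opposite way to the listed hsp-16 genes, from 0.0516 ± 0.0356 to 2.53 ± 0.175 CPM (log2 5.56 ± 0.62, edgeR adjusted p = 2.86e-06). These levels rest on 0.969 to 6.79 counts per fed and 126 to 204 counts per fasted young library, so the fitted size depends on few fed counts. ZK1128.7 rose too (1.49), and hsp-17 (-1.92) and hsp-43 (-0.40) fell.

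On a list of 6 genes that holds Hsp70-type genes, hsp-110 and the Hsp70 co-chaperone gene bag-1, 2 rose and 3 fell with age in fed animals. F44E5.5, an inducible Hsp70 gene, rose from 4.84 ± 3.57 to 135 ± 120 CPM (log2 4.80 ± 0.78, edgeR adjusted p = 5.51e-05). Its near-identical neighbour F44E5.4, named after its values were seen, rose by 4.25 ± 1.12. The lowest young libraries of F44E5.4 were at 0 CPM in both feeding states. Reads could have been divided between these copies too, so their rises may not be separate. The mean of fed day 8 libraries 3 and 4 stood at 6.98 times that of libraries 1 and 2 for F44E5.5. hsp-110 (-0.74), hsp-1 (-0.55), the constitutive cytosolic Hsp70 gene, and stc-1 (-0.41) fell. In the large constitutive groups, 8 of 8 CCT chaperonin genes, 4 of 6 prefoldin genes and 4 of 9 Hsp90 and co-chaperone genes fell with age in fed animals, and none rose. The share of all genes called lower in that comparison was 34.7%, and the share of 4 of 9 is near it. CCT and prefoldin take part in the folding of actin and tubulin, and Hsp90 matures kinases and receptors. Of 29 J-domain genes, which hand clients to Hsp70, 4 rose and 8 fell, while in fasted animals 15 rose and 1 fell, beside 31.2% and 36.9% of all genes.

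**Figure D4:**
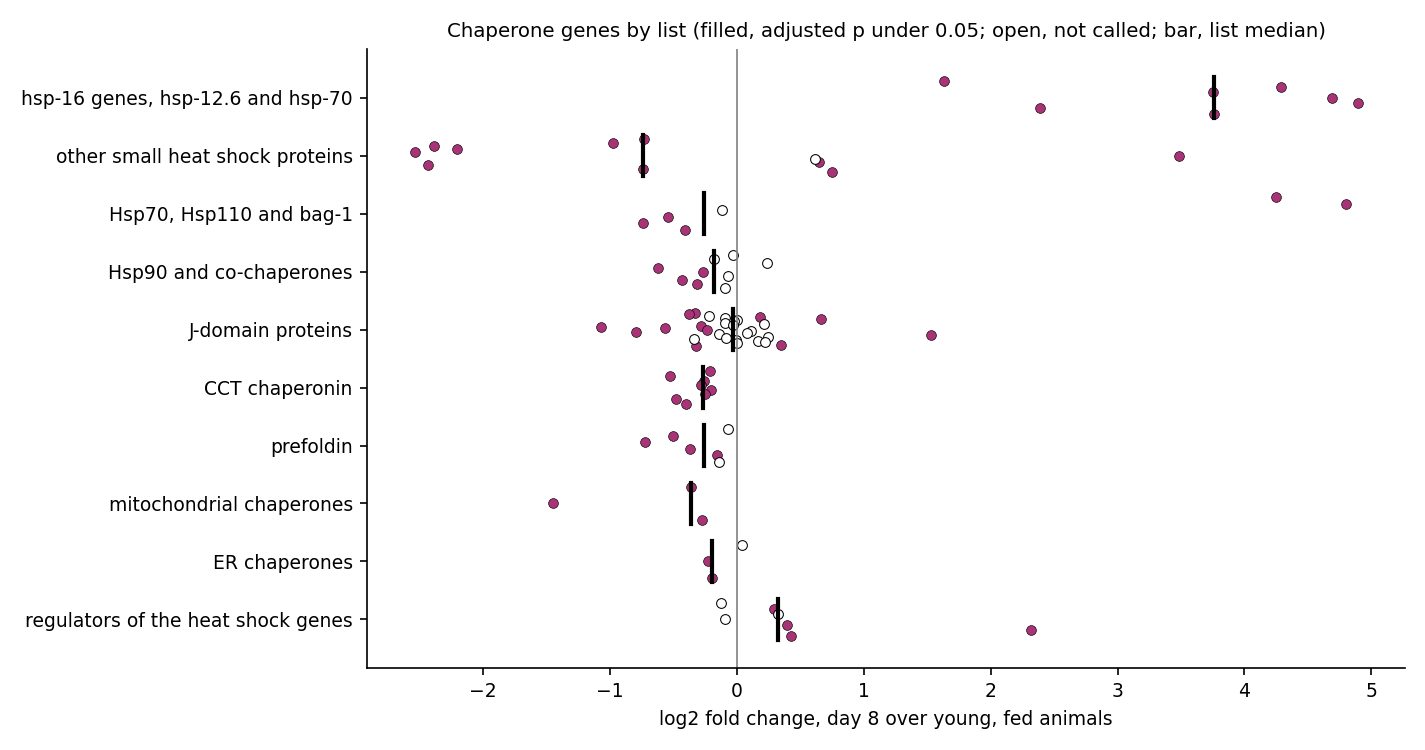
Log2 fold change with age in fed animals for each chaperone gene, by list. Filled points passed in edgeR, open points did not, and the bar is the list median. The hsp-16 genes, hsp-12.6 and hsp-70 lie between 1.63 and 4.89, to the right of most other genes, with F44E5.4, F44E5.5 and hsp-16.20 among the few at similar values.

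With fasting in young adults 2 of the 82 genes on the other lists rose and 41 fell, beside 21.2% and 21.1% of all genes. Of 29 J-domain genes 15 fell and none rose, among them dnj-7 (-1.23) and dnj-13 (-0.52). The ER Hsp70 genes hsp-3 (-1.22 ± 0.06, edgeR adjusted p = 1.83e-10) and hsp-4 (-0.66) fell. Of 3 mitochondrial chaperone genes hsp-60 fell (-1.22 ± 0.19), while hsp-6 (-0.02 ± 0.13) and hsp-75 (-0.02 ± 0.10) did not pass. hsp-1 fell from 3980 to 2888 CPM (-0.46), hsp-90 by 0.34 on the log2 scale and the co-chaperone gene daf-41 by 0.62. At day 8, of 82 genes on the 9 lists beside these, 0 passed with edgeR, 1 had an unadjusted p under 0.05, and 0 passed with DESeq2.

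Of 7 regulators of the heat shock genes, 3 fell and none rose with fasting in young adults, beside 21.1% of all genes called lower. With age in fed animals 4 rose and none fell, beside 30.8% called higher. hsf-1, which encodes the heat shock factor, went from 106 ± 3.93 CPM in fed to 80.0 ± 1.22 CPM in fasted young adults (log2 -0.41 ± 0.08, edgeR adjusted p = 0.000465) and was at 140 ± 11.3 and 131 ± 14.6 CPM in fed and fasted day 8 animals. Its age change was 0.39 in fed and 0.71 in fasted animals, and both passed. In fed day 8 libraries 3 and 4, hsf-1 stood at 0.876 times libraries 1 and 2. The other regulators except jmjd-3.1 were lower there too. The ratios were 0.723 for ddl-2, 0.803 for hsb-1, 0.818 for daf-16, 0.841 for ddl-1 and 0.932 for skn-1. ddl-1, which encodes a binding partner that restrains HSF-1, fell with fasting in young adults (-0.60) and rose with age (0.29 fed, 0.77 fasted). jmjd-3.1, an H3K27 demethylase gene known to sustain the heat shock response, rose with age from 8.00 ± 0.889 to 39.9 ± 19.7 CPM (log2 2.32 ± 0.32, edgeR adjusted p = 1.17e-05) and stood 2.45 times higher in fed day 8 libraries 3 and 4 than in 1 and 2. It did not pass for fasting in young adults (-0.22 ± 0.32). skn-1, a stress-response factor gene, fell with fasting in young adults (-0.22) and rose with age in fed animals (0.42). daf-16 (0.19 ± 0.09), hsb-1 (-0.19 ± 0.09) and ddl-2 (-0.05 ± 0.14) did not pass for fasting in young adults, and daf-16 fell with age in fasted animals (-0.38).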

How the data were processed

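RNA sequencing of whole nematodes gave 1 table of expected counts per gene (estimated counts that need not be whole), as deposited by the authors. Per the submitters' processing notes, the build was WBcel235 and the tool DESeq, and the sources used here name no aligner, counter or strand setting. Symbols and positions came from the WBcel235 annotation, release 115, and symbols of the copies from RefSeq by sequence name (21502 of 21882 IDs matched).

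Counts were rounded, filtered with filterByExpr (17844 genes kept, 4038 removed), scaled with TMM and fitted in edgeR 4.0.16 under R 4.3.3, with a mean per group over all 16 libraries. The quasi-likelihood test was adjusted over all genes (Benjamini-Hochberg, threshold 0.05), and SEs derive from its F. The test was checked on simulated counts with changes in fasted young libraries only. These held no age difference and no day 8 split, so the check does not cover them. Depth was 58.4 to 117.7 M counts (M, 1000000), and counting error is largest for hsp-16.1, hsp-16.2 and hsp-16.41 in young libraries. Alternatives were DESeq2 1.42.0, RLE scaling, no filter, only the groups compared, replicate blocks, counts divided by 2, summed copies, a term for day 8 libraries 3 and 4, removal of an abundant pseudogene and of each library. Deviations of same-numbered fed and fasted libraries correlated at 0.329 to 0.564 at day 8 and at -0.00458 to 0.0399 in young adults. Libraries of unlike number were not compared. The split of day 8 libraries 1 and 2 from 3 and 4 is part of the day 8 values. These values therefore cannot show that a number pairs libraries, and the labels do not say so. Pairing by number at day 8 was an assumption. The genes and lists were chosen with earlier results of these data known. All 8 listed genes were described, with up to 4 genes of each other list per comparison by smallest adjusted p, 7 regulators in any case and the 4 genes most like each profile. Outside this rule, the age changes of hsp-16.20, hsp-17 and F44E5.4 were named after their values were seen.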

Additional observations from a re-analysis of the deposited data

Results flagged for a closer look

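The change with fasting differed between young and day 8 animals (young minus day 8, edgeR) for hsp-12.6 by 1.82, for hsp-16.48 by -2.48, for hsf-1 by -0.31 (adjusted p = 0.0436) and for ddl-1 by -0.48 (adjusted p = 0.0303).

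In 2 of the 28 groups of 4 libraries tested, 1 library stood far from the rest, with its gap to the nearest other library as a share of the group's range above Dixon's critical value. Library 3 of the fasted young adults, at 0.502 CPM, was the only one of its group with hsp-16.1 above 0 (share 1). With the rest of the group at 0, the share is 1 whatever the value. Summed with hsp-16.11, that library was at 0.896 CPM, within the group's range of 0.888 to 1.25 CPM. Fed day 8 library 3, at 2.21 CPM, was the highest for hsp-12.6 (share 0.908). Chance alone flags about 1 in 20 groups without ties at 0.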

How the results depend on the processing

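The age rises of 7 genes in fed and 6 in fasted animals were unchanged in number under every alternative tried, and no value changed sign among those called. The count of 5 genes that fell with fasting in young adults was 4 with RLE scaling, 3 with no filter on low counts and 1 with counts divided by 2, and ran from 0 to 5 when 1 library was left out. The cause was not tested. hsp-12.6 was always called higher there. At day 8 none was called in any fit except with libraries 3 and 4 only (1 higher, 2 lower). The count with a more negative response in young adults, 1, became 3 with a replicate block over all libraries, 3 with that block set separately by age, 3 with a term for libraries 3 and 4, 4 with libraries 3 and 4 only and 5 with libraries 1 and 2 only, and ran from 0 to 1 when 1 library was left out. Neither replicate block changed another call of these genes. In young adults the check gave no sign that the numbers pair libraries, and at day 8 it could not show it.

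Over all genes, young fasting calls (3790 higher, 3767 lower) became 6185 and 5865 with only the young groups, 5800 and 5821 with a block within each age, 5965 and 5904 with the set term, 6251 and 5874 with libraries 3 and 4 only, and 6147 and 5744 with libraries 1 and 2 only. Day 8 calls (27 and 39) became 0 and 4 with only the groups compared, 15 and 32 with the replicate block, 167 and 347 within each age, 224 and 614 with the set term, 369 and 1243 with libraries 3 and 4 only, 97 and 231 with libraries 1 and 2 only and 98 and 130 with DESeq2, and without 1 library 10 to 43 and 22 to 58. For the difference, 2396 and 2254 became 4204 and 4847, 4461 and 4937, 4476 and 4355, and 3639 and 4336, in the order block within each age, set term, libraries 3 and 4, libraries 1 and 2. The median age change of all genes in fed animals was 0.10 with RLE scaling and 0.15 with no filter, against -0.01.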
